A study of Homo sapiens with 4 samples.

Results

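The distal block of chromosome 14 is the part of this chromosome from 44 Mb to its distal end in the genome build hg19. It was examined for regions in which H3K4me1, a single methyl group on a lysine of histone H3, was called higher after depletion of the histone demethylase LSD2. Members were the distinct peaks of the deposited list on chromosome 14 whose midpoint lay at or above 44 Mb. There were 1820 of them among 160601 distinct peaks in all, which is 1.13% of the list and 44.2% of the 4115 peaks on chromosome 14.

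The cells were HepG2, an established human line derived from a liver tumour. The peaks compare 1 H3K4me1 ChIP library from HepG2 cells given an siRNA against LSD2 with 1 H3K4me1 ChIP library from HepG2 cells given a control siRNA against GL3, a luciferase sequence. Both were grown in the same high-glucose medium and immunoprecipitated with the same antibody. An input library of each condition was also sequenced, which makes 4 samples in 4 groups of 1, and the header of the peak list names neither input. No condition was replicated, the read totals of the libraries are unknown here, and no test between conditions was possible. The list holds only regions higher in the knockdown library, so peak counts say nothing about regions higher in the control library.

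LSD2, encoded by KDM1B, is an amine oxidase that removes methyl groups from mono- and dimethylated H3K4. Monomethylation at this lysine is typical of enhancers, both active and poised, and of the flanks of promoters. The distal long arm of chromosome 14 carries a cluster of serine protease inhibitor genes that the liver expresses strongly, and near its end the immunoglobulin heavy chain locus, which B cells rearrange and express and hepatocytes do not.

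The block was chosen by its low number of peaks per 1 Mb window in this same list, so its density is given as a description and was not tested. The 1820 peaks covered 544 kb and lay at 28.8 peaks per Mb (95% Poisson interval 27.5 to 30.1), counted from 44 Mb to the end of the last peak. In the proximal block, from the first peak of the chromosome to 44 Mb, 2295 peaks lay at 92.2 peaks per Mb (88.4 to 96.0). The distal density was 0.312 of the proximal one (95% interval 0.293 to 0.332). Covered bases differed more, with 8.61 kb of peaks per Mb in the distal block and 35.5 kb per Mb in the proximal block, a ratio of 0.243. All intervals here are for counting error alone and take each peak as a separate event.

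The limit at 44 Mb lay in a peak-free stretch of 232 kb. The peaks nearest to it inside the block ran from 44152580 to 44152736 (157 bp wide), from 44176508 to 44177059 (552 bp) and from 44219013 to 44219364 (352 bp). Those nearest to it outside ran from 43920189 to 43920363 (175 bp), from 43875664 to 43875965 (302 bp) and, farther out, from 43863052 to 43863351 (300 bp). The 10 bins of 100 kb just inside the limit held 0 to 6 peaks each and 3 of them held none, whereas the 10 bins just outside held 1 to 15 peaks and none was empty. In the last 200 kb before the limit the counts were already low, with 2 peaks and then 1 peak per 100 kb. Over 5 Mb on either side, 97 peaks (19.4 per Mb) with a median width of 266 bp lay inside and 506 peaks (101.2 per Mb) with a median width of 317.5 bp lay outside. Only 2 of the 97 inner peaks (2.06%) were 420 bp or wider, against 105 of the 506 outer peaks (20.8%). The first stretch of the block was thus sparser and narrower than the block as a whole.

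Windows of 1 Mb within the block differed widely from each other. The 63 whole windows held 28.8 ± 13.0 peaks (SD over windows), with a median of 26, quartiles of 20.5 and 37, and a range from 5 to 60. Their SD was 45.1% of their mean, against 18.7% in the 24 whole windows of the proximal block, which held 95.04 ± 17.8 peaks and ranged from 43 to 121. For counts this percentage rises as the mean falls. The ratio of variance to mean differed less, at 5.85 in the distal and 3.34 in the proximal windows. Only 1 of those 24 proximal windows held no more peaks than the fullest distal window. Of the 63 distal windows, 53 were below the lower quartile, 2 were above the median and 0 were above the upper quartile of the 2644 windows of the other autosomes that held a peak (quartiles 43 and 72, median 57).

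**Figure D1:**
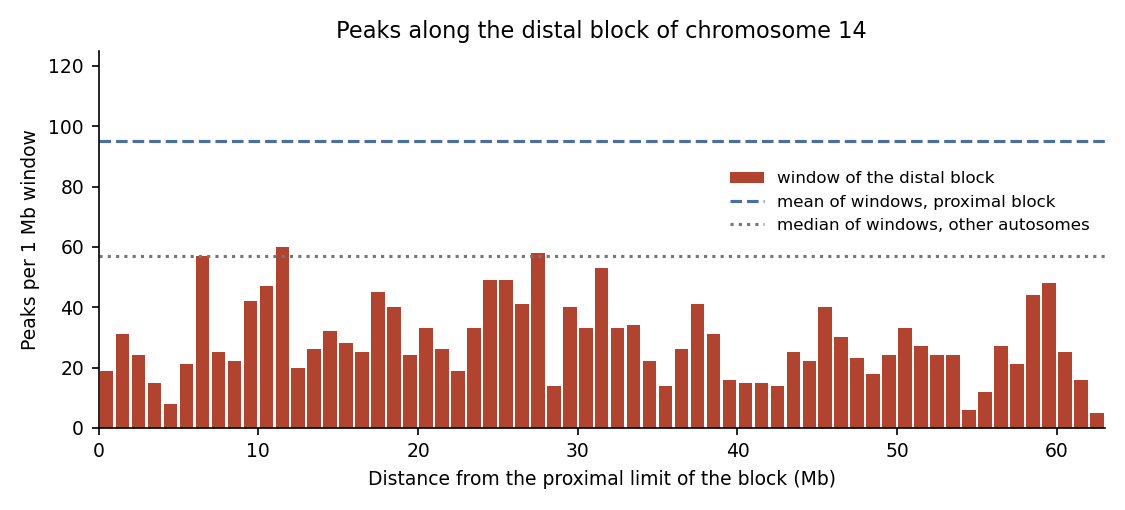
Peaks per 1 Mb window (bars, y axis) in the 63 whole windows of the distal block, by distance from its proximal limit in Mb (x axis). The bars range from 5 to 60; the dashed line is the mean of the proximal windows, 95.04 peaks, and the dotted line the median of the windows of the other autosomes, 57 peaks.

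The fullest window ran from 55000001 to 56000000 and held 60 peaks (95% Poisson interval 45.8 to 77.2). Next came the windows from 71000001 to 72000000 with 58 peaks, from 50000001 to 51000000 with 57 and from 75000001 to 76000000 with 53. The neighbouring windows from 68000001 to 69000000 and from 69000001 to 70000000 held 49 peaks each. The intervals of these 6 windows overlapped, so their order is not resolved by counting. In all, 13 windows held over 40 peaks. They included a stretch of 4 windows from 68000001 to 72000000 with 197 peaks, a stretch of 3 from 53000001 to 56000000 with 149 peaks and a pair from 102000001 to 104000000 with 92 peaks. On a scale of 100 kb, the fullest bin ran from 62100001 to 62200000 and held 13 peaks.

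The emptiest whole window ran from 106000001 to 107000000, within the immunoglobulin heavy chain region, and held 5 peaks (95% Poisson interval 1.62 to 11.7). The window from 98000001 to 99000000 held 6 peaks, the one from 48000001 to 49000000 held 8 and the one from 99000001 to 100000000 held 12. The 3 windows that start at 72000001, 79000001 and 86000001 held 14 peaks each. The window that starts at 72000001, with 14 peaks, directly follows the window with 58. Low windows also came in stretches. The 4 windows from 83000001 to 87000000 held 60 peaks together, as many as the single fullest window. Across the 62 pairs of adjacent windows, the counts of neighbours were weakly related (Pearson r 0.32, Spearman rho 0.33, given as a description because all windows come from the same pair of libraries). Beyond the last whole window, 6 more peaks lay above 107000001, and the last of them ended at 107255179.

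By segments of 10 Mb, density was highest from 54000001 to 74000000 and lowest in the shorter last segment. From 64000001 to 74000000 there were 36.2 peaks per Mb (95% Poisson interval 32.6 to 40.1), and from 54000001 to 64000000 there were 34.7 (31.1 to 38.6). Density was 26.4 (23.3 to 29.8) in the first segment, from 44000001 to 54000000, and 22.6 (19.7 to 25.7) in the segment from 84000001 to 94000000. In the last 3.26 Mb, from 104000001 on, it was 15.97 (11.9 to 20.9). No 10 Mb segment reached the density of the proximal block.

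No other autosome had as low a mean over as many windows that held a peak. The mean over 63 consecutive windows with a peak was computed at every position of the 17 other autosomes long enough. The lowest such mean was 41.6 peaks per window on chromosome 9, followed by 46.3 on chromosome 13, and the median of the 17 lowest means was 52.1. The distal block, at 28.8, was at 0.692 of the lowest of them. Chromosomes 19, 20, 21 and 22 are shorter than the block and averaged 41.3, 67.9, 46.5 and 55.3 peaks per window. Chromosome X was the exception among all chromosomes compared, with means from 17.5 to 23.8 over stretches of 63 windows, all below the distal block. Windows without a peak were left out of these means, so a stretch that crosses such windows is longer than the block. Chromosome Y was not compared.

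**Figure D2:**
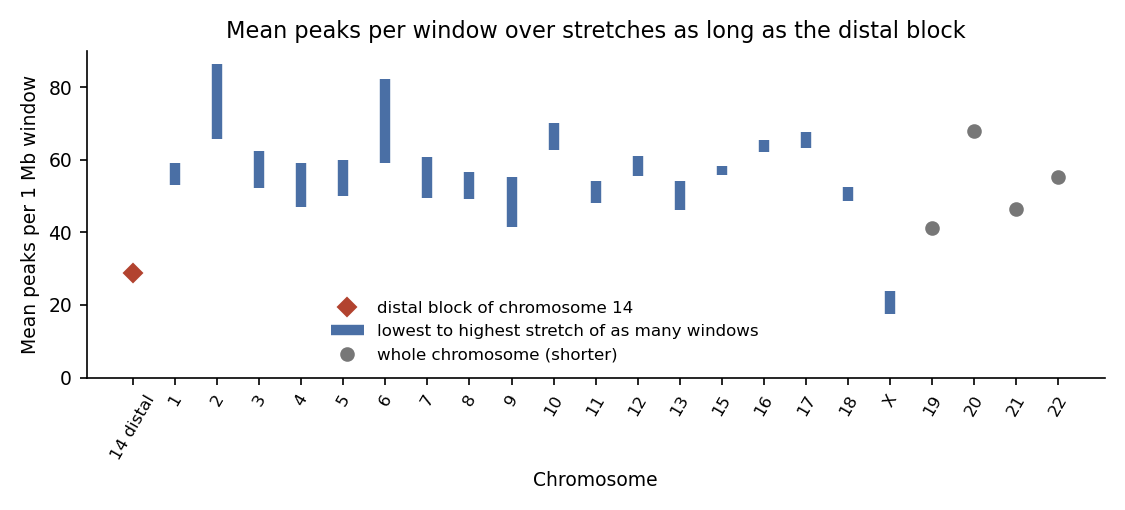
Mean number of peaks per 1 Mb window with a peak (y axis) in the distal block (diamond), over the lowest to the highest stretch of 63 such windows on other chromosomes (vertical bars), and over whole chromosomes that are shorter (circles). The diamond, at 28.8, lies below every bar and circle of an autosome and above the bar of X, which ends at 23.8.

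Peaks of the block were narrower than those of the proximal block. The distal median was 289 bp, between a lower quartile of 208 bp and an upper quartile of 367 bp, and the extremes were 149 and 946 bp. For the proximal block the median was 328 bp, the quartiles 238 and 420 bp, and the extremes 145 and 3219 bp. Widths of 420 bp or more made up 9.51% of the distal peaks (173 peaks, 95% Wilson interval 8.24 to 10.9%) and 25.3% of the proximal peaks (580 peaks, 23.5 to 27.1%). None of the 1820 distal peaks reached 1 kb (95% Wilson interval 0 to 0.211%), against 73 of the proximal peaks (3.18%). Peaks under 200 bp made up 22.5% of the distal block (20.7 to 24.5%) and 14.4% of the proximal block (13.0 to 15.9%). The fullest bin of 10 bp was at 150 to 159 bp in the distal block, with 119 peaks or 6.54%. In the proximal block this bin held 3.31%, and the fullest was at 300 to 309 bp with 3.79%. Narrow peaks were not particular to the block. Chromosome X had a median of 288 bp and quartiles of 207 and 362 bp. There, 6.78% of peaks were 420 bp or wider, 22.7% were under 200 bp and 2 reached 1 kb. Widths come from the same peak call as the counts, so differences between parts were not tested.

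**Figure D3:**
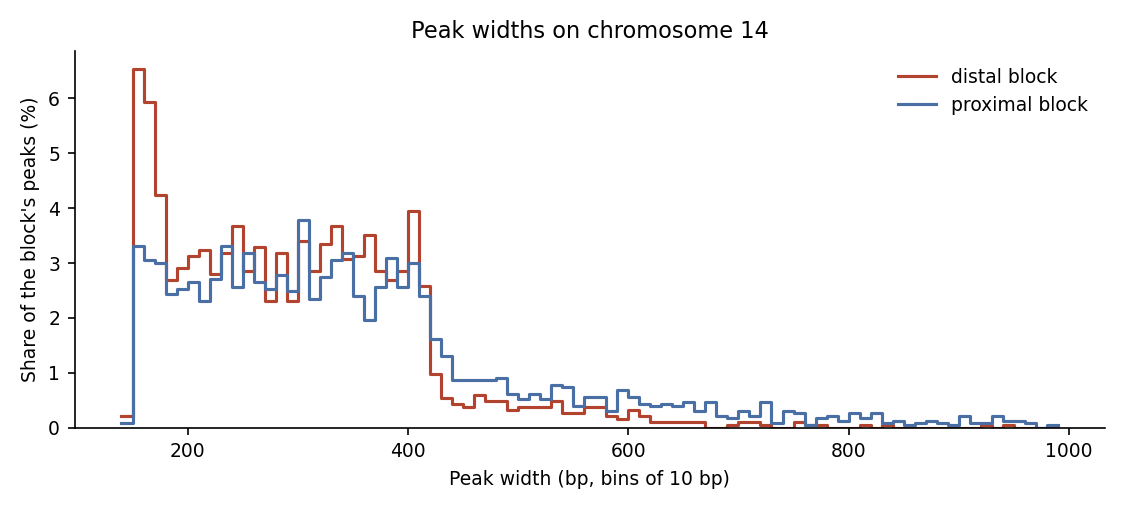
Share of each block's peaks in percent (y axis) by peak width in bins of 10 bp (x axis), for the distal and the proximal block of chromosome 14. The distal curve is higher in every bin from 140 to 229 bp and in some of the wider bins. Wide peaks of 420 bp or more make up 9.51% of the distal and 25.3% of the proximal peaks. The 73 proximal peaks of 1 kb or wider lie beyond the axis.

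The widest peak of the block ran from 52121597 to 52122542 (946 bp). It was followed by peaks from 91585504 to 91586424 (921 bp), from 75997789 to 75998626 (838 bp), from 91964288 to 91965103 (816 bp) and, last among the 5, from 69272766 to 69273539 (774 bp). In the proximal block 82 peaks were wider than the widest of these. The narrowest width, 149 bp, was shared by 4 peaks that start at 51524010, 57180790, 67986061 and 80943521. The narrowest peak of the proximal block measured 145 bp.

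Within the block, fuller windows also had wider peaks. The 21 fullest windows, with 33 to 60 peaks, held 50.5% of the block's peaks, at a median width of 304.5 bp. The middle 21 windows had a median of 289 bp. The 21 emptiest windows, with 5 to 22 peaks, had a median of 253 bp. Peaks under 200 bp made up 18.2% in the fullest windows, 23.0% in the middle ones and 32.9% in the emptiest. Over the 63 windows, count and median width had a Spearman rho of 0.51 and a Pearson r of 0.53, given as a description because windows share libraries and peak call.

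The share of wide peaks was close to that of the other autosomes pooled once windows of like fullness were compared, although single autosomes differed widely. The share of peaks under 200 bp was higher than in the pool of those autosomes, but its interval overlapped that of chromosome X. This share was not computed for single autosomes, and the intervals cover counting error alone. The 35 distal windows that held 20 to 40 peaks were set beside the 473 windows of the other autosomes with 20 to 40 peaks. The distal windows had a median width of 285 bp and the others 299 bp, and 8.73% (95% Wilson interval 7.11 to 10.7%) and 9.68% (9.23 to 10.2%) of their peaks were 420 bp or wider. By comparison, over all windows these shares were 9.51% in the distal block and 18.1% in the rest of the autosomes, proximal block included. Peaks under 200 bp made up 24.2% (21.6 to 27.0%) in the 35 distal windows and 20.2% (19.6 to 20.9%) in the 473 windows of the other autosomes. A neighbour within 5 kb was found for 34.3% of the peaks in these 35 distal windows and for 35.1% in the 473 others. The medians of the 21 other autosomes in such windows ran from 287 to 343.5 bp, all above the distal 285 bp. Their shares of peaks of 420 bp or wider ran from 5.70 to 27.4%. The distal windows were also somewhat emptier within the range, with 27.8 peaks each against 33.5. Windows of chromosome X with 20 to 40 peaks held 28.3 peaks each and had a median width of 292 bp. Of their peaks, 7.26% were 420 bp or wider and 22.6% (20.5 to 24.8%) were under 200 bp. The range of 20 to 40 was chosen after the data were seen.

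The block was chosen for few peaks per window, so long distances and empty bins follow from that choice and were not tested. Their median in the block was 18.0 kb, with quartiles of 6.33 and 44.3 kb. In the proximal block the median was 6.48 kb, with quartiles of 2.41 and 13.7 kb, and on chromosome X it was 23.5 kb. Of the 1819 distances in the block, 142 (7.81%) were over 100 kb, against 6 of 2294 (0.262%) in the proximal block. Bins of 100 kb without any peak numbered 87 of 630 (13.8%) in the distal block and 0 of 240 in the proximal block. At the other end, 6 distal bins held 10 or more peaks, against 120 proximal bins.

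**Figure D4:**
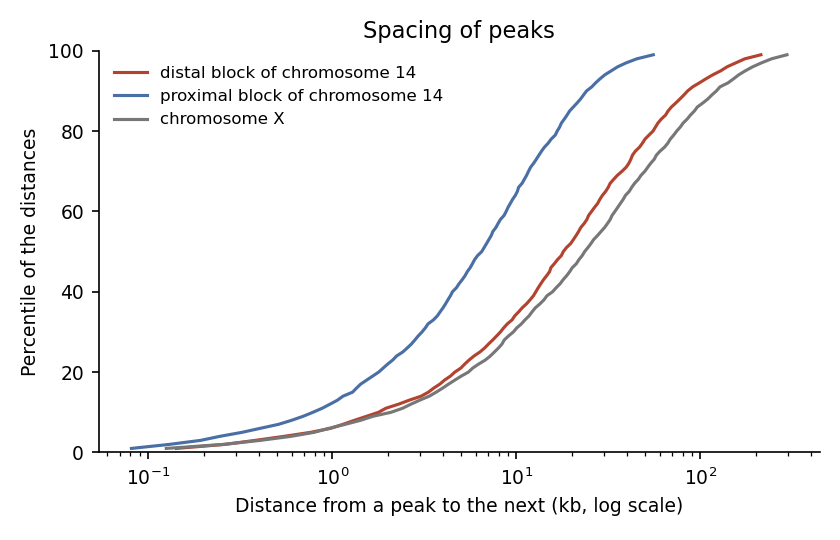
Percentile (y axis) of the distance from a peak to the next in kb (x axis, log scale) for the distal block, the proximal block and chromosome X. At the middle of the y axis the distal curve reads 18.0 kb, between the proximal block (6.48 kb) and X (23.5 kb).

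The longest stretch without a peak, 432 kb, ran from 48330416 to 48762576. It was followed by 344 kb from 98345961 to 98689539, 321 kb from 86349483 to 86670888, 299 kb from 106290951 to 106589999 and 297 kb from 98048416 to 98345808. The second and the fifth of these are separated by a single peak from 98345809 to 98345960. The closest pair of peaks was 31 bp apart, between 50684188 and 50684220.

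Peaks of the block were mostly single. Another peak lay within 5 kb of 36.6% of them (95% Wilson interval 34.5 to 38.9%), against 66.7% (64.7 to 68.6%) in the proximal block and 31.98% (30.4 to 33.6%) on X. Few neighbours and short runs also follow from the choice of a sparse block and were not tested. In windows with 20 to 40 peaks, the share was 34.3% in the block, 35.1% on other autosomes and 35.3% on X. When peaks less than 5 kb apart were joined into runs, 1153 peaks (63.4%) stood alone, 209 runs were pairs and 75 runs held 3 or more peaks. Those 75 runs held 249 peaks, or 13.7% of the block, whereas 39.6% of the proximal peaks lay in such runs. The longest run ran from 95605359 to 95614932 and held 6 peaks in 9.57 kb. Another 4 runs held 5 peaks each, from 54894469 to 54902836, from 68864091 to 68875532, from 73481309 to 73491206 and from 75468659 to 75478782. The longest proximal run held 11 peaks.

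The SERPINA region encodes serpins of clade A. The gene table at hand, which describes another build and was used only for names and their order, lists 11 SERPINA symbols on chromosome 14, with non-coding RNA and pseudogene entries between some of them. In table order these are SERPINA10, SERPINA6, SERPINA2, SERPINA1, SERPINA11, SERPINA9, SERPINA12, SERPINA4, SERPINA5, SERPINA3 and SERPINA13P. SERPINA2 and SERPINA13P are listed as transcribed pseudogenes and the other 9 as protein-coding. SERPINA1 encodes antitrypsin, the main plasma inhibitor of neutrophil elastase, and SERPINA3 encodes antichymotrypsin, an acute-phase protein. SERPINA6 encodes the globulin that binds corticosteroids in plasma, SERPINA5 the inhibitor of activated protein C, SERPINA10 the inhibitor that acts with protein Z, and SERPINA4 kallistatin. SERPINA12 encodes vaspin, known from adipose tissue, and SERPINA9 is known from germinal-centre B cells. Peaks were not assigned to single genes, because gene positions in hg19 were not at hand.

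The SERPINA window, from 94700001 to 95200000, held 22 peaks (95% Poisson interval 13.8 to 33.3), or 44 per Mb. That was 1.53 times the density of the whole block, but the interval of the rate, 27.6 to 66.6 peaks per Mb, includes the block's 28.8. The 0.5 Mb before the window held 17 peaks and the 0.5 Mb after it held 14, and both counts lay within the interval of the window's count. Of the 126 windows of 0.5 Mb in the block (median 13 peaks, range 2 to 37), 28 held 22 or more. In the proximal block, 47 of 48 did. The window was therefore fuller than most of the block, but not beyond counting error, and below nearly all of the proximal block.

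Peaks of the SERPINA window were spread along most of it. The first ran from 94702209 to 94702374 and the last from 95131548 to 95131701, and the final 68.3 kb of the window held none. Their median width was 342 bp, with a range from 154 to 562 bp, and 3 of the 22 were 420 bp or wider. These 3, which were the widest, ran from 94841798 to 94842359 (562 bp), from 94753031 to 94753578 (548 bp) and, little narrower, from 94783214 to 94783755 (542 bp). The median distance between peaks was 14.8 kb. The closest pairs were 114 bp apart, at 95060142 to 95060257, and 121 bp apart, at 94744184 to 94744306. The longest stretch without a peak was 57.9 kb, from 94875982 to 94933904, and another 2 stretches, from 95007801 to 95059760 and from 94790371 to 94841797, were 52.0 and 51.4 kb long. All 22 peaks were listed in a single row.

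The immunoglobulin heavy chain region encodes the variable, diversity, joining and constant segments of antibody heavy chains. The same gene table lists 87 symbols starting with IGHV, 27 starting with IGHD and a number, 9 starting with IGHJ and 11 constant genes or pseudogenes there. The window from 106000001 to 107300000 held 11 peaks (95% Poisson interval 5.49 to 19.7), or 8.46 per Mb (4.22 to 15.1). This was 0.294 of the density of the whole block. The interval lies below the block's density but covers counting error alone. Counts of the 1 Mb windows in the block spread more than that, with a variance 5.85 times their mean. The 1.3 Mb before the window held 19 peaks. The window was not the emptiest of its length. At 608 overlapping positions in steps of 100 kb before it, 12 stretches of 1.3 Mb held 11 or fewer peaks, with a median of 36 over all positions. The emptiest, from 97700001 to 99000000, held 9.

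The 11 peaks were narrow and far apart. Their median width was 185 bp, 6 of them were under 200 bp, and the widest, from 106825910 to 106826236, was 327 bp. The others ran from 106121865 to 106122104, from 106290787 to 106290950, from 106590000 to 106590157, from 106804742 to 106805050, from 107009810 to 107009992, from 107015039 to 107015198, from 107210975 to 107211143, from 107250793 to 107250977, from 107251348 to 107251569 and from 107254884 to 107255179. The last 3 lay within 4.39 kb of each other at the end of the chromosome's peaks. The median distance between peaks was 104 kb and the longest 299 kb.

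**Figure D5:**
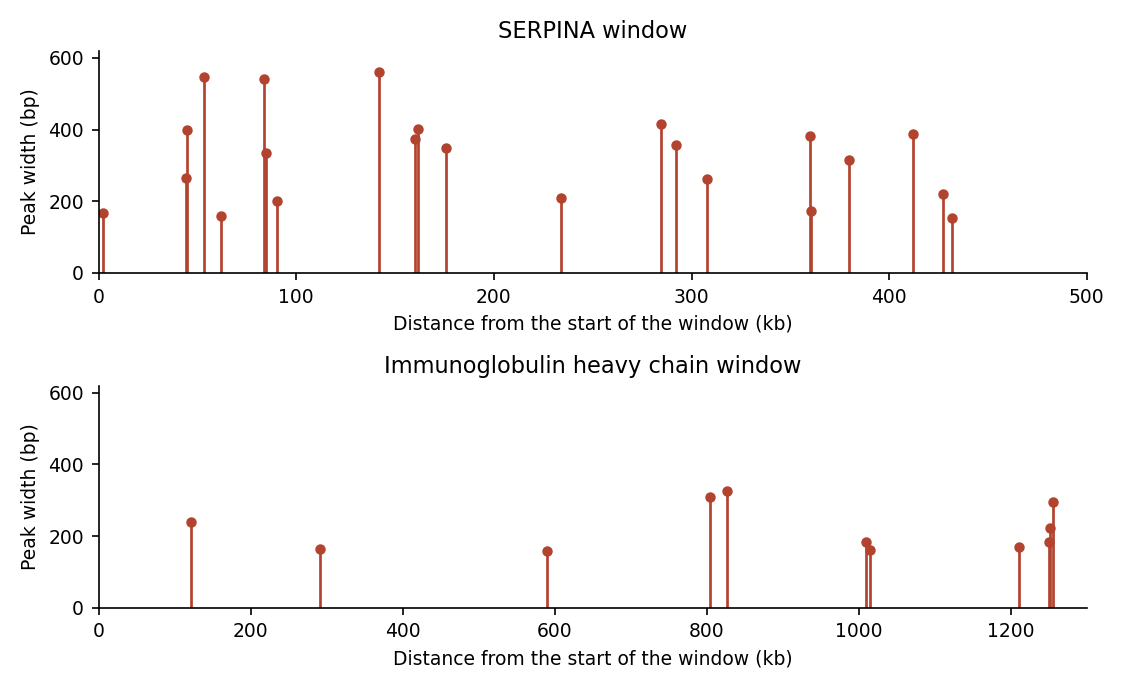
Width in bp (y axis) of each peak of the SERPINA window (top) and of the immunoglobulin heavy chain window (bottom) by distance from the start of the window in kb (x axis, on different scales). The 22 peaks of the upper panel reach 562 bp, and the 11 of the lower panel reach 327 bp.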

How the data were processed

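Sonicated, crosslinked chromatin was immunoprecipitated and sequenced on semiconductor instruments, per the labels' protocols. The submitters' processing notes name BWA and hg19, with no versions. MACS was run by the authors on trimmed, deduplicated reads, per the file headers, and the LSD2 siRNA library was the treatment and the GL3 siRNA library the control. The settings were an enrichment factor of 32, a p-value cutoff of 1e-05, local bias detection, an effective genome of 2700000000 bp, and 128 bp as the length of both reads and fragments. The 3 deposited columns give chromosome, start and end, with no score or other value per peak, so all peaks count alike. The depth of the libraries is unknown.

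The 180505 deposited rows were reduced to 160601 distinct peaks, with starts converted to count from 1. Members, windows and lists were chosen with earlier results of these data known. Peaks were assigned to windows by midpoint. Neighbour distances count the bases between peaks. Intervals (95%) are exact Poisson for counts, Wilson for shares and exact binomial for the ratio of densities. No test was made. Named regions were the 5 fullest and 5 emptiest windows, the 5 widest and 3 narrowest peaks, the 5 longest gaps and the 3 longest runs, with ties. The bin of 100 kb, the closest pair, the stretches of windows and the most repeated peaks were named after their values were seen. Every peak of the SERPINA and immunoglobulin windows was named where there were 15 or fewer, otherwise the first, the last and the 3 widest, and the closest pairs were added afterwards. The functions were checked on simulated peaks. Python 3.11.15, pandas 2.3.3, numpy 2.4.6, SciPy 1.17.1 and matplotlib 3.10.9 were used.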

Additional observations from a re-analysis of the deposited data

Results flagged for a closer look

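Some peaks stood in several identical deposited rows, which is a signal outside the peak positions. In the distal block 343 peaks had more than 1 row, a share of 18.8% (95% Wilson interval 17.1 to 20.7%), against 11.7% (10.5 to 13.1%) in the proximal block and 10.7% in the rest of the autosomes, proximal block included. By whole chromosomes, 19 was above the block at 25.3%, and 17 came next at 17.7%. Of these 343 peaks, 300 had 2 rows, 38 had 3, 3 had 4 and 2 had 5. In windows with 20 to 40 peaks, the share was 22.3% (19.8 to 25.0%) in the distal block. It was 7.58% (7.18 to 8.0%) on the other autosomes pooled and 10.1% on chromosome X. Among the 21 single autosomes the median was 7.43%, and only chromosome 16 was above the block, at 27.9% of 190 peaks in 6 windows. Chromosomes 19, at 21.9%, and 17, at 20.5%, lay within the block's interval. Repeated peaks had a median width of 304 bp and the others 285 bp. The peak after a repeated peak was itself repeated in 56.0% of cases. By segments of 10 Mb from 44000001, the share was 11.0, 23.6, 19.1, 23.4, 12.8 and 18.0% in order, with no steady rise. It was 28.8% (15 of 52 peaks) in the shorter last segment, after 104000001. The pair with 5 rows lay close together, from 104027484 to 104027812 and from 104032312 to 104032564. What a further row stands for is not given in the sources used here.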

How the results depend on the processing

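Of 31 alternatives to 9 values, 20 stayed close to the value reported and 11 moved it. The count of peaks in the block, the median per window, the median width and the counts of the SERPINA and immunoglobulin windows stayed within 1.5-fold (for the medians within 1 SD) under the alternatives run for each. Density in the block, 28.8 peaks per Mb, was 35.0 by deposited rows, 27.0 with peaks within 1 kb merged and 12.2 when peaks narrower than the median of the list were dropped. These lay outside its interval and count as moved. By deposited rows the count of peaks went from 1820 to 2213, which is the same change but counts as close under the wider rule. The ratio of distal to proximal density, 0.312, was 0.334 by deposited rows and after merging. It was 0.249 for the wider peaks and 0.243 by covered bases. A ratio below 1 follows from the choice of a sparse block in this same list and was not tested. Moving the limit to 43 or 45 Mb left both values inside their intervals, as did leaving out the immunoglobulin window for the density. By construction, the share of wide peaks was 5.22% at 500 bp or wider and 0% at 1 kb or wider, and the share with a neighbour was 11.8% within 1 kb and 73.9% within 20 kb. With a single library in every group, none could be left out. No paired analysis was possible because the groups have no replicates to pair. Depth is unknown and limits every count, since a peak-free stretch does not tell little coverage from no difference. Input coverage and copy number along the chromosome were also unknown here, so the density of the block could not be set against them.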
